A study of Mus musculus with 14 samples.

Results

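The messenger RNAs of 10 mouse genes that write, copy, remove or protect DNA methylation were followed in oocytes with and without Clpx, which encodes the unfoldase of a protease in the mitochondrial matrix. The genes were Dnmt1, Uhrf1, Dnmt3a, Dnmt3b, Dnmt3l, Kdm1b, Tet3, Dppa3, Zfp57 and Trim28, chosen by symbol. All 10 were found among the 16417 genes listed in both deposited count tables, and all 10 passed the filter on low counts in every comparison. The 14 libraries fell into 4 groups. Ovulated CKO oocytes (3 libraries) and germinal vesicle (GV) CKO oocytes (4 libraries) came from Clpx fl/fl mice carrying Zp3-Cre, a recombinase driven by the promoter of a zona pellucida gene that is active in growing oocytes. Ovulated WT oocytes (3 libraries) and GV WT oocytes (4 libraries) came from Clpx fl/fl mice without Cre. The genotypes are those of the genotype labels, in which all 4 groups carry the floxed alleles; the titles of the ovulated WT libraries write fl/f. Ovulated oocytes have gone through meiotic maturation and been released from the follicle, whereas GV oocytes still hold an intact nucleus in prophase arrest. The labels give no age, no number of oocytes or mice per library and no batch. P-values therefore set group differences against the spread between these libraries, which may be technical.

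In growing mouse oocytes DNA methylation is laid down by DNMT3A with its cofactor DNMT3L, and this sets the maternal imprints, the marks by which a gene is later used from 1 parental copy. After fertilisation most methylation is lost, with TET3 oxidising 5-methylcytosine, while DNMT1 and UHRF1 copy existing marks at replication. Imprints survive this loss because ZFP57 binds methylated imprinting control regions and brings in TRIM28, and because DPPA3 protects the maternal genome. The egg makes almost no new RNA between GV breakdown and the activation of the embryonic genome, so the proteins of that time are made from stored messages.

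Total estimated counts were between 25086506 and 28471453 per library, and the 10 genes together held 0.505% to 1.037% of them. Clpx, the deleted gene, had 0.269 to 0.575 counts per 1000000 (CPM, scaled with TMM factors) in ovulated CKO oocytes and 17 to 19.1 CPM in ovulated WT oocytes. It had 0.676 to 1.44 CPM in GV CKO oocytes and 39.6 to 58.1 CPM in GV WT oocytes. The ovulated CKO libraries differed in their correlation with the mean GV profile across 13148 genes. It was 0.886 and 0.867 for replicates 1 and 2 and 0.804 for replicate 3. The ovulated WT libraries had 0.789, 0.818 and 0.834, so replicate 3 lay within their range and replicates 1 and 2 above it. Tests that use ovulated CKO oocytes are given with and without replicate 3, a choice made after the data were seen. The summed level of 12 oocyte markers, in FPKM, which are fragments scaled to gene length and depth within each stage's table, was 7407 to 8917 in ovulated CKO, 6151 to 8513 in ovulated WT, 16672 to 23744 in GV CKO and 16728 to 20669.9 in GV WT oocytes, led by Gdf9, with none at 0. The 13 granulosa and cumulus markers summed to 27.5 to 41.2, 26.9 to 54.5, 10.7 to 25.4 and 16.3 to 24.1 FPKM in the same order of groups, led by Cyp19a1. Foxl2 and Amh, which define granulosa cells, were not listed in the table of ovulated oocytes, and Tnfaip6 was not listed in that of GV oocytes. Foxl2 was not at 0 in either GV group, and Amh was at 0 in GV WT but not in GV CKO oocytes. Pgr was at 0 in ovulated CKO, GV CKO and GV WT oocytes, Cd44 in ovulated CKO and GV WT oocytes, and Amhr2 in ovulated CKO oocytes. No listed granulosa or cumulus marker was at 0 in ovulated WT oocytes. The 10 markers of theca, stroma, endothelium and blood summed to 24.1 to 28.7, 22.1 to 34.8, 6.69 to 13.7 and 8.89 to 16.7 FPKM, led by Pecam1. The summed levels ran higher in ovulated than in GV oocytes mostly through these leading genes, since Cyp19a1 averaged 31.9, 38.9, 15.9 and 18.3 FPKM and Pecam1 26.2, 26.0, 8.65 and 10.8 FPKM in the 4 groups. With edgeR, of 7 granulosa and cumulus markers tested between the stages 1 was higher and 1 lower in CKO oocytes (0 and 1 without replicate 3), and 2 were higher and none lower in WT oocytes (median log2 fold change -1.52 and 0.73). Of 3 tested markers of the other cells, 1 was higher in each genotype. Between CKO and WT oocytes no granulosa, cumulus or other-cell marker passed with edgeR, with or without replicate 3. The granulosa and cumulus markers had a median log2 fold change of -1.7 in ovulated oocytes (5 tested, 1 above 0). In GV oocytes it was -0.13 (4 tested, 1 above 0). The part of these markers in the stage and genotype results was not tested.

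Per unit of length, the protector Dppa3 was far above the other 9 genes in every group. It had 8251.6 ± 1081 FPKM in ovulated CKO, 8258 ± 1489 in ovulated WT, 5992 ± 901 in GV CKO and 5345 ± 703 in GV WT oocytes (SD, n = 3, 3, 4 and 4), above at least 99.9% of the genes of each library. Zfp57 was second in every group, with 385 ± 173, 264 ± 91.3, 683 ± 38.8 and 712 ± 65.8 FPKM in the same order of groups. Dnmt3b was the lowest in every group, at 9.16 ± 1.45, 8.52 ± 1.3, 1.69 ± 0.323 and 2.33 ± 0.786 FPKM, with Dnmt3l next above it in ovulated WT oocytes, within overlapping ranges, and Dnmt3a in the other groups. The middle of the order differed between the stages. In GV oocytes of both genotypes Dnmt1, Dnmt3l and Uhrf1 followed Zfp57, and their ranges overlapped from neighbour to neighbour. In ovulated oocytes of both genotypes Uhrf1, Dnmt1, Tet3 and Trim28 followed Zfp57 with overlapping ranges, and Dnmt3l stood eighth in CKO and ninth in WT.

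**Figure D1:**
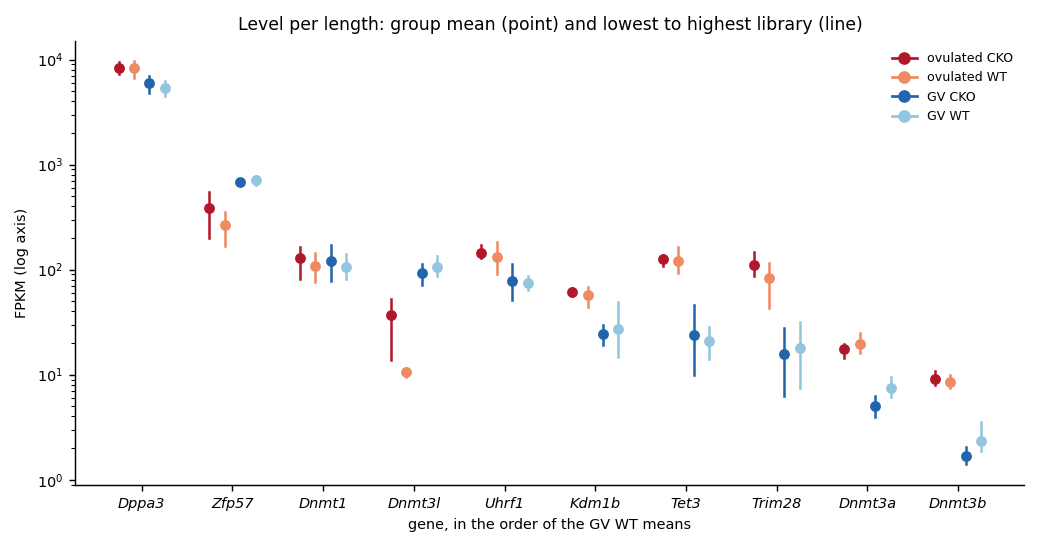
FPKM of each gene on a log axis, with the group mean as a point and a line from the lowest to the highest library, for ovulated CKO, ovulated WT, GV CKO and GV WT oocytes (3, 3, 4 and 4 libraries). Dppa3 lies highest and Dnmt3b lowest in all 4 groups, and Dnmt3l lies at the lower end in ovulated oocytes and among the middle genes at the GV stage.

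Ratios of FPKM within a library show how the mixture of these messages shifted. Dnmt3a stood at 0.685 ± 0.591 of the level of its cofactor Dnmt3l in ovulated CKO oocytes and 1.86 ± 0.39 in ovulated WT oocytes. The 3 ovulated CKO libraries had ratios of 0.314, 0.375 and 1.37, so that the mean was 0.344 without replicate 3. The same ratio was 0.0561 ± 0.0209 in GV CKO and 0.0709 ± 0.00943 in GV WT oocytes. Tet3 stood at 1.08 ± 0.48 of Dnmt1 in ovulated CKO, 1.14 ± 0.279 in ovulated WT, 0.188 ± 0.0691 in GV CKO and 0.195 ± 0.038 in GV WT oocytes. Trim28 stood at 0.324 ± 0.143, 0.337 ± 0.182, 0.0234 ± 0.0142 and 0.0256 ± 0.0154 of Zfp57 in these groups. Without replicate 3 the ovulated CKO means of these ratios were 0.804 for Tet3 over Dnmt1 and 0.243 for Trim28 over Zfp57. For each of these 3 ratios, every ovulated library lay above every GV library. Uhrf1 stood at 1.19 ± 0.337 of Dnmt1 in ovulated CKO, 1.2 ± 0.085 in ovulated WT, 0.652 ± 0.0755 in GV CKO and 0.722 ± 0.147 in GV WT oocytes, and the lowest ovulated CKO library (0.929) lay within the GV WT range. Dnmt3a stood at 1.93 ± 0.366, 2.3 ± 0.18, 3.01 ± 0.761 and 3.27 ± 0.416 of Dnmt3b, with overlapping stages in CKO oocytes. Without replicate 3 the ovulated CKO means were 0.994 for Uhrf1 over Dnmt1 and 1.73 for Dnmt3a over Dnmt3b. These are descriptions and were not tested.

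The first comparison set ovulated against GV oocytes within each genotype. In CKO oocytes 4 of the 10 genes were higher in ovulated oocytes (Tet3, Trim28, Dnmt3b and Dnmt3a), 2 were lower (Dnmt3l and Zfp57) and 4 did not pass (Dnmt1, Uhrf1, Dppa3 and Kdm1b). In WT oocytes the same 6 genes were called in the same directions, and Kdm1b was higher as well. The test was edgeR's quasi-likelihood F-test on all 14 libraries with Benjamini-Hochberg adjustment over 13158 genes and a threshold of 0.05. By this rule 55.7% of all genes were called in CKO oocytes (25.8% higher and 29.9% lower) and 63.7% in WT oocytes (29.7% higher and 34.0% lower), so the share of members called was near the background in both. The libraries of the 2 stages did not overlap for 6 of the 10 genes in each genotype, against 58.6% of all genes in CKO and 62.3% in WT oocytes. The median log2 fold change over the members was 0.34 in CKO and 0.54 in WT oocytes, and over all genes -0.14 and -0.08. Without ovulated CKO replicate 3 the same 6 members passed in CKO oocytes, with 47.1% of all genes called. The stages lie in separate tables, so stage and any difference in handling between them cannot be told apart. A CPM is a share of the library's RNA, so less of a message per cell and more of the other RNAs cannot be told apart either. SMART-Seq2 primes on poly(A) tails, so a longer tail and more molecules likewise cannot be told apart.

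**Figure D2:**
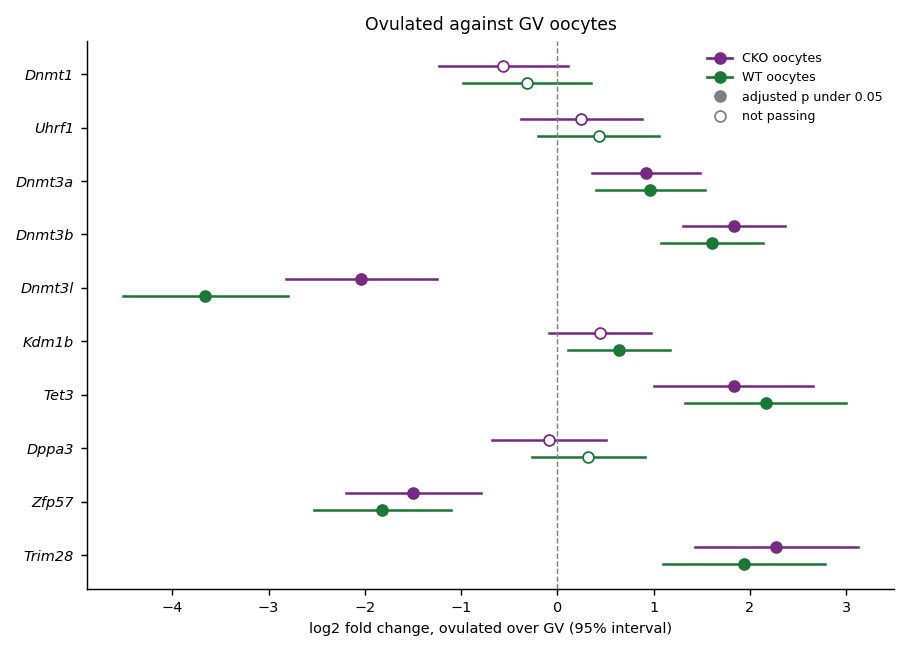
Log2 fold change of ovulated over GV oocytes for each gene in CKO (upper of each pair) and WT oocytes, with the 95% interval as a line and filled points for an adjusted p under 0.05. Dnmt3l and Zfp57 lie left of 0 and Dnmt3a, Dnmt3b, Tet3 and Trim28 right of 0 in both genotypes, and Dnmt3l is at -2.04 in CKO and -3.66 in WT oocytes.

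Dnmt3l, on chromosome 10 from 78042287 to 78063622 (mm10, as all positions here), encodes a catalytically inactive relative of the DNA methyltransferases that binds and stimulates DNMT3A. It had 56.9, 57.3 and 18.7 CPM in the 3 ovulated CKO libraries and 16.4, 13.3 and 13.2 CPM in the 3 ovulated WT libraries. It had 126, 163, 169 and 269.7 CPM in the 4 GV CKO libraries and 198, 177, 120.3 and 226 CPM in the 4 GV WT libraries. Every ovulated library was below every GV library. It was 4.11-fold lower in ovulated than in GV oocytes of the CKO (log2 fold change -2.04, SE 0.37, edgeR adjusted p = 0.000264), at -1.69 without ovulated CKO replicate 3 (SE 0.33, edgeR adjusted p = 0.000739). It was 12.6-fold lower in the WT (-3.66, SE 0.40, edgeR adjusted p = 2.45e-06). Of all log2 fold changes, its own was at percentile 15.7 in CKO and 8.0 in WT oocytes, so many genes fell further.

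Dnmt3a and Dnmt3b encode the de novo methyltransferases, of which DNMT3A is the one that methylates the mouse oocyte genome. Dnmt3a (chromosome 12 from 3801559 to 3914443) had 117.5, 135 and 157 CPM in ovulated CKO and 231, 134 and 131 CPM in ovulated WT oocytes. It had 75.7, 69.3, 49.6 and 94.2 CPM in GV CKO and 88.5, 82.5, 64.5 and 103 CPM in GV WT oocytes. The stages did not overlap in either genotype, and 1 ovulated WT library was well above the other 2. It was 1.89-fold higher in ovulated oocytes of the CKO (log2 fold change 0.92, SE 0.27, edgeR adjusted p = 0.00771), at 0.80 without ovulated CKO replicate 3 (edgeR adjusted p = 0.0325), and 1.95-fold higher in the WT (0.96, SE 0.27, edgeR adjusted p = 0.00475). Dnmt3b (chromosome 2 from 153649411 to 153687730) was the lowest of the 10 by FPKM and had 27.3, 30.7 and 27.4 CPM in ovulated CKO and 37.8, 23.4 and 25 CPM in ovulated WT oocytes. The GV levels were 7.09 to 8.79 CPM in the CKO and 6.94 to 11.9 CPM in the WT, below every ovulated library. Dnmt3b was 3.58-fold higher in ovulated oocytes of the CKO (1.84, SE 0.25, edgeR adjusted p = 2.64e-05), at 1.86 without ovulated CKO replicate 3 (edgeR adjusted p = 8.45e-05), and 3.06-fold higher in the WT (1.61, SE 0.25, edgeR adjusted p = 4.24e-05). Dnmt3l and its partner Dnmt3a thus moved in opposite directions between the stages. Pseudogenes of Dnmt3a, Dnmt3b, Dnmt3l and Dppa3 and an antisense RNA at Dnmt3a are annotated but were not listed in the count tables, and strand use in counting is not given in the sources used here, so reads shared with them cannot be told apart.

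Kdm1b, which encodes a demethylase of histone H3 lysine 4 required in the mouse oocyte to set many maternal imprints, lies on chromosome 13 from 47043373 to 47085279. It had 155, 130.3 and 184.0 CPM in ovulated CKO and 189, 159 and 148 CPM in ovulated WT oocytes. It had 96.7, 102, 105 and 158 CPM in GV CKO and 93.0, 92.9, 150.1 and 88.6 CPM in GV WT oocytes. The stages overlapped in both genotypes through 1 high GV library each. In the CKO it did not pass (log2 fold change 0.44, SE 0.25, edgeR adjusted p = 0.148), at 0.29 without ovulated CKO replicate 3 (edgeR adjusted p = 0.429), and it passed without GV CKO replicate 4 (0.75, edgeR adjusted p = 0.0162). In the WT it was 1.56-fold higher in ovulated oocytes (0.64, SE 0.25, edgeR adjusted p = 0.0344), a call that held in 2 of the 7 edgeR fits that left out 1 WT library (adjusted p from 0.00753 to 0.122).

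Tet3, the dioxygenase that oxidises 5-methylcytosine in the mouse zygote, lies on chromosome 6 from 83362373 to 83457208. It had 919.7, 1088 and 1267 CPM in ovulated CKO and 1104.5, 1280.0 and 861 CPM in ovulated WT oocytes. It had 555, 345, 164 and 163.5 CPM in GV CKO and 140.0, 327, 272 and 225 CPM in GV WT oocytes. No ovulated library overlapped a GV library, and GV CKO replicate 1 was the highest of the GV stage. Tet3 was 3.56-fold higher in ovulated oocytes of the CKO (log2 fold change 1.83, SE 0.39, edgeR adjusted p = 0.000964), at 1.71 without ovulated CKO replicate 3 (edgeR adjusted p = 0.0038). It was 4.49-fold higher in the WT (2.17, SE 0.40, edgeR adjusted p = 0.000188). Of all log2 fold changes, its own was at percentile 92.7 in CKO and 94.9 in WT oocytes.

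Zfp57 and Trim28, the zinc finger protein and its corepressor that act together at imprints, moved in opposite directions. Zfp57 (chromosome 17 from 37001163 to 37010729) had 531, 647 and 292 CPM in ovulated CKO and 265, 423 and 391 CPM in ovulated WT oocytes. It had 1187, 1633, 1001 and 1705 CPM in GV CKO and 1143, 1224, 977.5 and 1726 CPM in GV WT oocytes. All ovulated libraries were below all GV libraries. Zfp57 was 2.82-fold lower in ovulated oocytes of the CKO (log2 fold change -1.5, SE 0.33, edgeR adjusted p = 0.00121), at -1.24 without ovulated CKO replicate 3 (edgeR adjusted p = 0.00864), and 3.52-fold lower in the WT (-1.82, SE 0.34, edgeR adjusted p = 0.000203). Trim28 (chromosome 7 from 13024152 to 13031032) had 211, 329 and 262 CPM in ovulated CKO and 258, 256 and 114 CPM in ovulated WT oocytes. It had 93.4, 52.1, 46.8 and 28.7 CPM in GV CKO and 45.2, 57.3, 84.7 and 30.9 CPM in GV WT oocytes. Even the lowest ovulated library was above the highest GV library. Trim28 was 4.84-fold higher in ovulated oocytes of the CKO (2.27, SE 0.40, edgeR adjusted p = 0.000193), at 2.30 without ovulated CKO replicate 3 (edgeR adjusted p = 0.000571), and 3.84-fold higher in the WT (1.94, SE 0.40, edgeR adjusted p = 0.000468).

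Dnmt1 and Uhrf1, the maintenance methyltransferase and the protein that guides it to half-methylated DNA, and the protector Dppa3 did not pass between stages. Dnmt1 (chromosome 9 from 20907206 to 20959888) had 368 to 608 CPM in ovulated CKO, 369.8 to 534 in ovulated WT, 376 to 976 in GV CKO and 439 to 640.1 in GV WT oocytes. Its log2 fold change was -0.56 in the CKO (95% interval -1.23 to 0.11, edgeR adjusted p = 0.145), or -0.37 without ovulated CKO replicate 3 (edgeR adjusted p = 0.405), and -0.32 in the WT (-0.98 to 0.35, edgeR adjusted p = 0.391). Without GV CKO replicate 3, the lowest of its group, the CKO value passed (-0.78, edgeR adjusted p = 0.0273). The oocyte form of Dnmt1 differs from the somatic form by its first exon, and these counts per gene do not separate them. Uhrf1 (chromosome 17 from 56303337 to 56323486) had 338 to 405, 284 to 434, 155 to 403 and 189.6 to 339.6 CPM in ovulated CKO, ovulated WT, GV CKO and GV WT oocytes. Its log2 fold change was 0.25 in the CKO (-0.38 to 0.88, edgeR adjusted p = 0.487), or 0.26 without ovulated CKO replicate 3, and 0.43 in the WT (-0.20 to 1.06, edgeR adjusted p = 0.211). Dppa3 (chromosome 6 from 122626424 to 122630271) had 3158 to 4462, 3608 to 4676, 3419 to 4672 and 2407 to 4261 CPM in these groups. For Dppa3 the log2 fold change was -0.09 in the CKO (-0.68 to 0.50, edgeR adjusted p = 0.794), or -0.16 without ovulated CKO replicate 3, and 0.32 in the WT (-0.26 to 0.91, edgeR adjusted p = 0.315). For all 3 genes the groups overlapped and the intervals reach past 0, which does not show that the levels were alike.

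**Figure D3:**
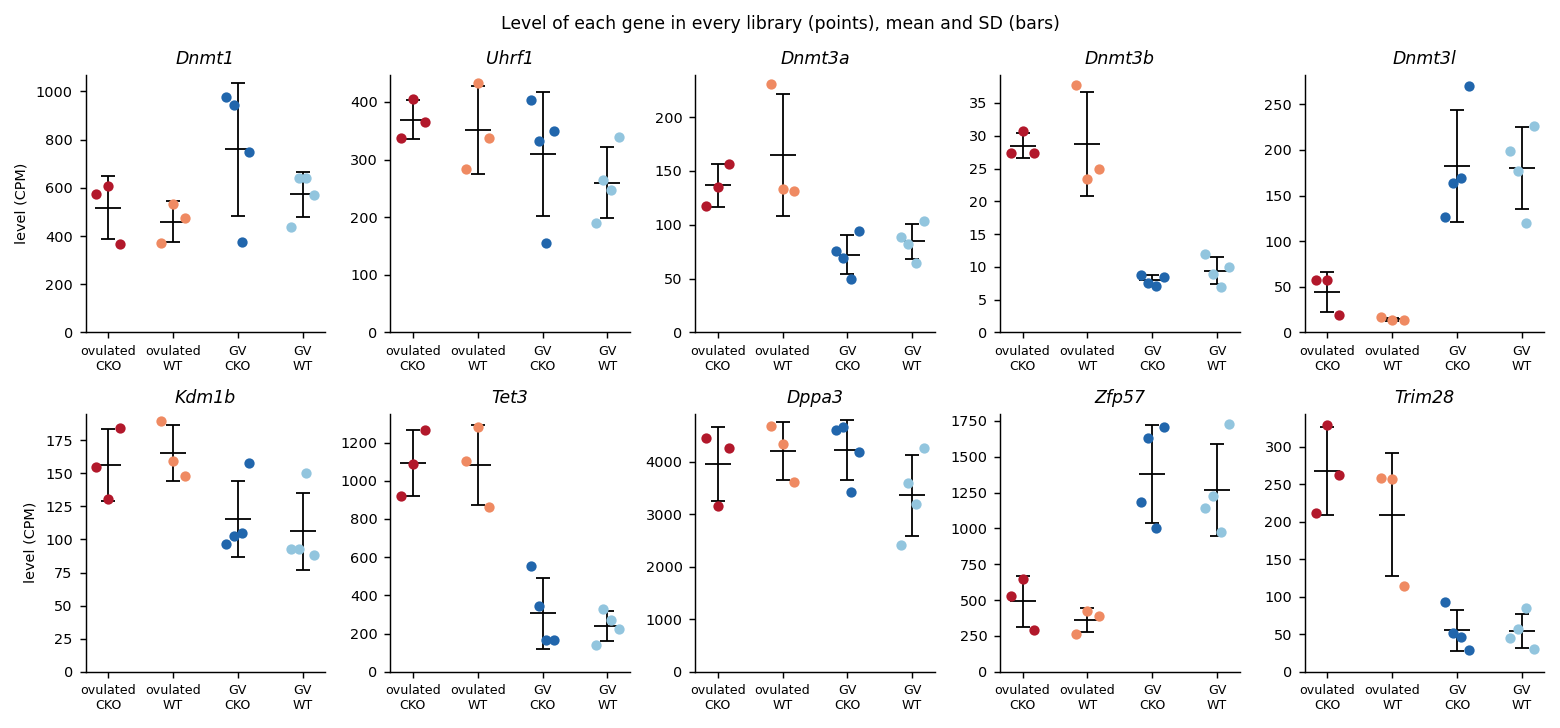
CPM of each gene in every library (points), with the mean and SD as bars, for ovulated CKO, ovulated WT, GV CKO and GV WT oocytes (3, 3, 4 and 4 libraries). Dnmt3l and Zfp57 are low and Tet3, Trim28, Dnmt3a and Dnmt3b high in ovulated oocytes, and 2 of the 3 ovulated CKO libraries hold 56.9 and 57.3 CPM of Dnmt3l against 13.2 to 16.4 CPM in ovulated WT oocytes.

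The fold changes between stages depend on the scaling. Scaling to total counts in place of TMM moved the median log2 fold change of all genes by 0.59 in CKO and 0.34 in WT oocytes. Under it 7 of the 10 members were higher and 2 lower in each genotype. Of all 13158 genes, 4688 were higher and 2257 lower in CKO oocytes, and 4471 were higher and 3515 lower in WT oocytes. Of all calls 67.5% were higher in CKO oocytes (46.3% with TMM) and 56.0% in WT oocytes (46.6% with TMM). These shares were not tested. Uhrf1 then passed at 0.90 in CKO and 0.85 in WT oocytes, Kdm1b at 1.05 in CKO oocytes (edgeR adjusted p = 0.00567), and Dppa3 at 0.51 and 0.71, where Dppa3 in CKO oocytes was below 0 with TMM, and the sign of Dnmt1 turned, to 0.11 in CKO and 0.06 in WT oocytes. The 6 genes that passed in both genotypes kept their direction and their call under both scalings.

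Cytoplasmic polyadenylation lengthens the tails of some stored messages during meiotic maturation and is directed by U-rich elements close to the poly(A) signal. The last 100 bases of 1 annotated transcript per gene (GENCODE M21 on GRCm38, the mm10 assembly) were searched on the sense strand for TTTTAT or TTTTAAT, the cytoplasmic polyadenylation element, and for AATAAA or ATTAAA, the poly(A) signal. These motifs may overlap each other. An element was found in 3 of the 10 genes, Tet3, Dnmt3a and Dnmt1, against 16.5% of 20458 genes with such a transcript. A poly(A) signal was found in 8 of the 10, against 74.4% of all, and Kdm1b and Dnmt3l had neither motif in this window. The 3 stretches with an element are shown first, then those of 3 genes that passed between stages without one; capitals mark the motifs, and all run 5′ to 3′ along the message.
Tet3 (chr6:83362379-83362408, minus strand): TTTTAATAAATTTTATatttattttttgca
Dnmt3a (chr12:3914389-3914418, plus strand): TTTTATtttcgctataaatagagcttcaat
Dnmt1 (chr9:20907227-20907256, minus strand): TTTTATatgttgtaatatttcttcaaaata
Trim28 (chr7:13031006-13031035, plus strand): ggatttAATAAAaacttcactgagtcagtt
Dnmt3b (chr2:153687701-153687730, plus strand): ctggttgATTAAAgttgtatttctctataa
Zfp57 (chr17:37010587-37010616, plus strand): AATAAAtacaatttttaaaactaaaagaag
In Tet3 2 elements overlap or flank the poly(A) signal, 36 and 26 bases before the transcript end. In Dnmt3a and Dnmt1 the element starts 55 and 48 bases before the end, and the poly(A) signal, 28 and 22 bases before it, runs past the last printed base. Tet3 and Dnmt3a were higher in ovulated oocytes and Dnmt1 did not pass. With no such element in this window, Trim28 and Dnmt3b were higher and Zfp57 and Dnmt3l lower. A link between the elements and these levels was not tested. Only 1 transcript end per gene was searched, and that of Zfp57 lies before the gene end given above. A match describes these letters only.

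The second comparison set CKO against WT oocytes and asked whether loss of Clpx changed these messages at either stage. In ovulated oocytes none of the 10 genes passed in edgeR's test over 12044 genes, in which 0.0083% of all genes were called, that is 1 gene (Clpx). At an unadjusted p under 0.05 there were 935 genes, of which Dnmt3l was the only member. DESeq2 called 114 genes, Dnmt3l among them, and limma-voom called no member. Dnmt3l was the only member whose libraries did not overlap between CKO and WT, against 10.6% of all genes. It was 3.02-fold higher in ovulated CKO than in ovulated WT oocytes (log2 fold change 1.59, SE 0.40, 95% interval 0.72 to 2.47, edgeR adjusted p = 0.524, DESeq2 adjusted p = 0.0283), higher in 3 of 3 libraries. The CKO libraries held 31.5%, 31.8% and 10.4% of the mean GV WT level of Dnmt3l, and the WT libraries held 9.09%, 7.37% and 7.32%. Replicates 1 and 2 of the CKO thus lay together and replicate 3 close to the WT libraries. Replicates 1 and 2 were also the ovulated libraries most like the mean GV profile, and the part of this in the result was not tested. Without that replicate Dnmt3l was 3.72-fold higher in ovulated CKO oocytes and passed (1.90, SE 0.32, edgeR adjusted p = 0.0200), in a fit in which 1.60% of all genes were called, 196 higher and 5 lower. Without ovulated CKO replicate 1 or 2 it was 1.41 or 1.36 and did not pass (edgeR adjusted p = 0.999 and 1).

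The other 9 genes had log2 fold changes between -0.28 and 0.42 in ovulated CKO over WT oocytes. Zfp57, which like Dnmt3l was lower in ovulated than in GV oocytes, was at 0.42 (95% interval -0.32 to 1.15, edgeR adjusted p = 0.796), and at 0.61 without ovulated CKO replicate 3 (-0.10 to 1.33, edgeR adjusted p = 0.417). Its ovulated CKO libraries held 41.9%, 51.0% and 23.1% of the mean GV WT level, and the ovulated WT libraries held 20.9%, 33.4% and 30.8%. As for Dnmt3l, replicates 1 and 2 were the highest and replicate 3 lay near the WT libraries, but here the groups overlapped. Trim28 was at 0.34 (-0.43 to 1.11), Dnmt1 at 0.14 (-0.50 to 0.79) and Dnmt3a at -0.28 (-0.94 to 0.38). Kdm1b, Dppa3, Dnmt3b, Tet3 and Uhrf1 lay between -0.10 and 0.05, with intervals that reach at most 0.82 from 0. Without ovulated CKO replicate 3 none of these 8 genes passed either, with values from -0.49 for Dnmt3a (edgeR adjusted p = 0.556) to 0.27 for Trim28 (edgeR adjusted p = 0.808).

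In GV oocytes none of the 10 genes passed with edgeR over 12265 genes, of which 0.0245% were called, and none had an unadjusted p under 0.05, against 704 of all genes. DESeq2 called 39 genes and limma-voom was run as well; neither called a member. No member's libraries were separate between CKO and WT, against 3.66% of all genes. The largest value was that of Dnmt1, at 0.40 (95% interval -0.22 to 1.03), with 976, 944.5, 376 and 747 CPM in GV CKO and 439, 639, 640.1 and 572 CPM in GV WT oocytes. In GV CKO oocytes 3 libraries lay above all WT libraries and replicate 3 below them. Tet3 was at 0.33 (-0.49 to 1.15), Dppa3 at 0.32 (-0.25 to 0.90), Uhrf1 at 0.25 (-0.36 to 0.85), Dnmt3b at -0.25 (-0.74 to 0.24) and Dnmt3a at -0.23 (-0.71 to 0.24). Zfp57 and Kdm1b were both at 0.12 and Trim28 at -0.0037. Dnmt3l was at 0.02 (-0.56 to 0.60) at this stage. In FPKM, Dnmt3a averaged 4.98 ± 1.11 in GV CKO and 7.41 ± 1.47 in GV WT oocytes (SD, n = 4 each), a wider gap than in TMM-scaled counts. Its log2 fold change was -0.57 in FPKM and -0.43 in counts scaled to totals, and it passed in neither.

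**Figure D4:**
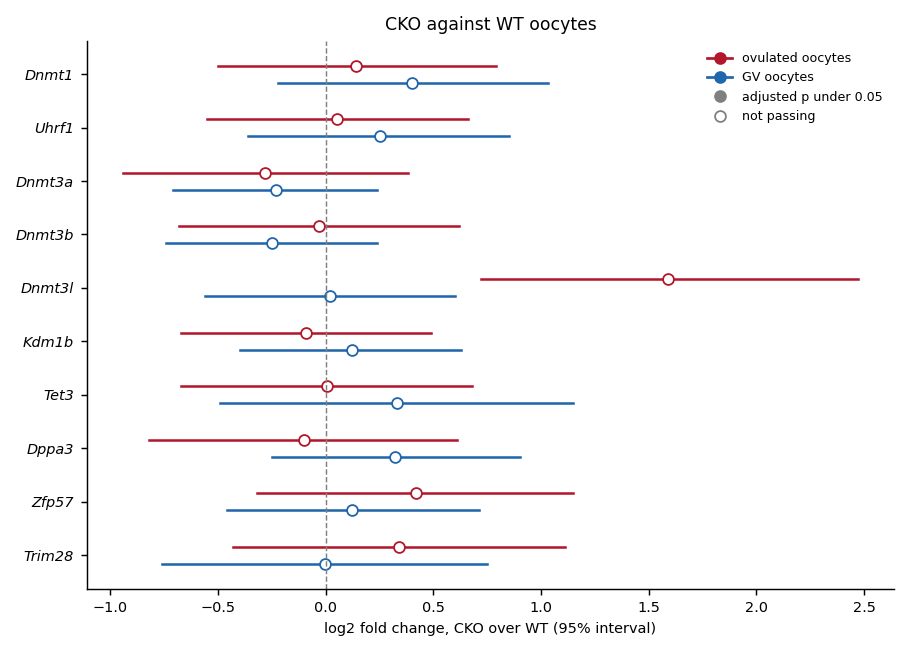
Log2 fold change of CKO over WT for each gene in ovulated (upper of each pair) and GV oocytes, with the 95% interval as a line. No gene reached an adjusted p under 0.05, and Dnmt3l in ovulated oocytes, at 1.59, is the only one whose interval lies clear of 0.

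The third comparison tested whether the effect of Clpx loss differed between the stages. None of the 10 genes passed with edgeR over 13158 genes, of which 0.0076% were called (1 gene), while 1205 genes had an unadjusted p under 0.05, among the members only Dnmt3l. Neither DESeq2 nor limma-voom called a member. The difference for Dnmt3l, the CKO effect in ovulated minus that in GV oocytes, was 1.62 (SE 0.50, 95% interval 0.57 to 2.67, edgeR adjusted p = 0.318). Without ovulated CKO replicate 3 it was 1.97 (SE 0.41, edgeR adjusted p = 0.0115), in a fit that called 3.68% of all genes. This difference shares its libraries with the comparisons above and is not a separate observation. The other members lay between -0.42 for Dppa3 and 0.33 for Trim28, or between -0.48 for Dppa3 and 0.57 for Zfp57 without that replicate, and did not pass.

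Around these genes, 6 lists of 94 further genes of DNA methylation were counted. Between ovulated and GV oocytes 80 of them could be tested, of which 40 were higher and 10 lower in CKO oocytes and 42 were higher and 10 lower in WT oocytes. That is 62.5% called in CKO and 65% in WT oocytes, against 55.7% and 63.7% of all genes, so the share called was near the background. Higher calls made up 50% and 52.5% of the list genes, against 25.8% and 29.7% of all genes, and lower calls 12.5% in each, against 29.9% and 34.0%. These shares were not tested. Of 13 partners of TRIM28 and HP1, 9 were higher in each genotype, and 2 were lower in CKO and 1 in WT oocytes (median log2 fold change 0.85 in CKO and 1.26 in WT oocytes, against -0.14 and -0.08 over all genes). The remodeller Chd4 had 119 ± 31.3 CPM in ovulated CKO, 126 ± 61.8 in ovulated WT, 19.3 ± 8.37 in GV CKO and 16 ± 4.08 in GV WT oocytes, a log2 fold change of 2.62 in CKO and 2.98 in WT oocytes. Daxx, a histone chaperone that works with Atrx, was higher at 1.45 and 1.46, and the deacetylase Hdac1 was lower, at -1.52 and -1.60. Of 16 chromatin regulators 10 were higher in CKO and 11 in WT oocytes, with none lower (medians 1.5 and 1.49). Among them Kdm1a, the paralogue of Kdm1b, was at 2.51 in CKO and 2.33 in WT oocytes, and the H3K4 methyltransferase Kmt2b at 2.23 and 2.10. Hells, a remodeller that helps DNA methyltransferases reach chromatin, had 170.3 ± 39.6 CPM in ovulated CKO, 178 ± 18.3 in ovulated WT, 53.2 ± 4.88 in GV CKO and 44.6 ± 4.16 in GV WT oocytes.

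A list of DNA demethylation and base excision also held the subunits of the ubiquitin ligase CRL4, the Gadd45 genes and Ogt, which adds N-acetylglucosamine to proteins. Of its 14 tested genes 8 were higher in each genotype (Cul4a, Cul4b, Dcaf1, Ddb1, Gadd45a, Ogt, Smug1 and Tet2), 4 of them CRL4 subunits. Apex1 was lower in both genotypes and Xrcc1 in WT oocytes (medians 1.01 in CKO and 0.92 in WT oocytes). Ddb1, the adaptor of CRL4, was at 1.70 in CKO and 1.55 in WT oocytes, and the glycosylase Smug1 at 1.72 and 1.47. Apex1, the endonuclease of base excision, was at -2.37 and -2.89. Of 15 genes of the methyl donor and folate cycles, 3 were higher in each genotype, and 6 were lower in CKO and 5 in WT oocytes (medians -0.24 and -0.26). Thymidylate synthase, Tyms, had 20.1 ± 16.3 CPM in ovulated CKO, 5.85 ± 1.07 in ovulated WT, 244.6 ± 39.4 in GV CKO and 183 ± 53.2 in GV WT oocytes. Ahcy, which removes the S-adenosylhomocysteine left by methylation, was at -2.28 in CKO and -3.30 in WT oocytes, and methionine synthase, Mtr, was higher at 1.62 and 1.83. Of 7 tested methyl-CpG readers 2 were higher in each genotype (medians 0.45 and 0.11), among them Zbtb33 at 1.26 and 1.27. Of 15 tested imprinted genes, 8 were higher and 1 lower in CKO, and 9 higher and 2 lower in WT oocytes (medians 0.84 and 0.82), with Igf2r at 1.45 and 1.18. Without ovulated CKO replicate 3, 37 of 81 tested genes of the lists were higher and 6 lower in CKO oocytes, 53.1% against 47.1% of all genes. Ogt no longer passed in that fit, which left 7 genes of the demethylation list higher and 1 lower. The list genes given above with a CPM or a log2 fold change kept their call in CKO oocytes. Their log2 fold changes were then 2.77 for Chd4, 1.39 for Daxx, -1.33 for Hdac1, 2.50 for Kdm1a, 2.24 for Kmt2b and 1.47 for Hells. They were 1.69 for Ddb1, 1.68 for Smug1, -2.08 for Apex1, -3.14 for Tyms, -1.89 for Ahcy, 1.59 for Mtr, 1.17 for Zbtb33 and 1.52 for Igf2r (edgeR adjusted p from 2.17e-05 for Tyms to 0.0306 for Hdac1). The methyl donor list then had 2 higher and 3 lower, and no imprinted gene was lower by edgeR's test.

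Between CKO and WT oocytes no gene of these lists passed with edgeR, DESeq2 or limma-voom, among 77 tested in ovulated and 79 in GV oocytes. With edgeR 5 had an unadjusted p under 0.05 in ovulated oocytes (Ahcyl2, Ehmt2, Mat2a, Mthfd1l and Tyms) and 1 in GV oocytes (Rnf2). Over all genes 935 of 12044 in ovulated and 704 of 12265 in GV oocytes had one, so neither list share was above that background. Ehmt2 was near the floor, at 1.0 ± 0.526 CPM in ovulated CKO and 0.197 ± 0.0926 CPM in ovulated WT oocytes. Tyms was at 1.72 in ovulated CKO over WT oocytes (SE 0.60, edgeR adjusted p = 0.557), and it was the only gene of the 6 lists that passed without ovulated CKO replicate 3. That made 1.3% of 77 tested list genes, against 1.60% of all genes called in that fit, so the list share was not above the background. In the same fit Zp2, Zp3 and Figla, of the 12 oocyte markers, passed as higher in the CKO, as did 1.56% of all genes. In the difference between stages no list gene passed with any of the 3 tools on all libraries. Ehmt2 was the only one with an unadjusted p under 0.05 in edgeR, against 1205 of 13158 genes. Without ovulated CKO replicate 3 Tyms passed in this difference (1.81, SE 0.42, edgeR adjusted p = 0.0222). It was 1.23% of 81 tested list genes, against 3.68% of all genes called.

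**Figure D5:**
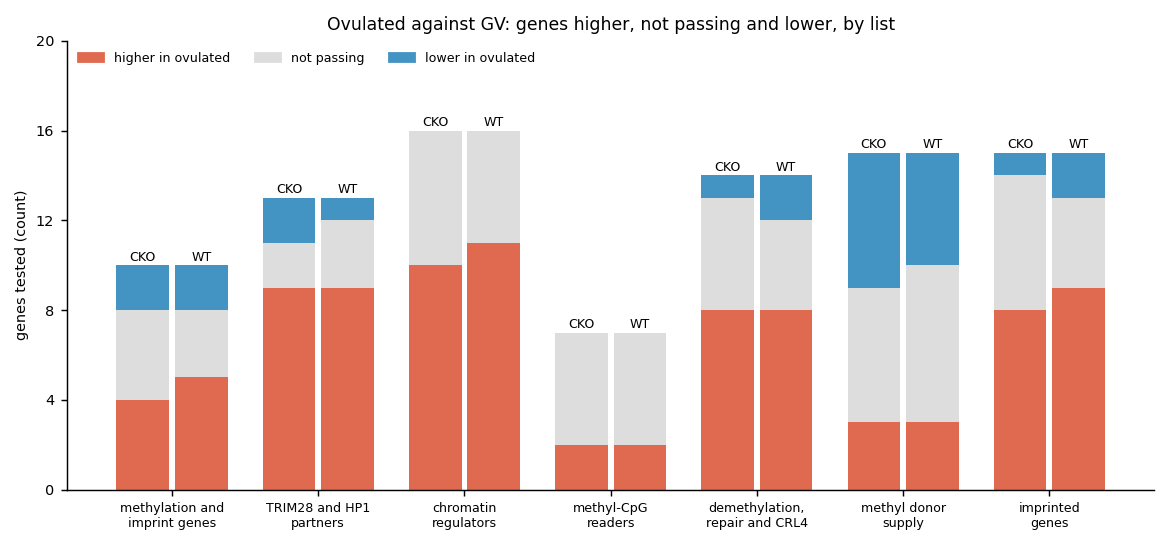
Number of tested genes that were higher (red), not passing (grey) or lower (blue) in ovulated against GV oocytes, for the 10 genes and 6 lists of related genes, with CKO left of WT. Chromatin regulators have 10 higher in CKO and 11 in WT oocytes with none lower, and the methyl donor list has 6 lower in CKO and 5 in WT oocytes.

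The libraries of a group spread unevenly across the 10 genes. The coefficient of variation of CPM was highest for Tet3 in GV CKO oocytes, at 60.7%, against 32.9% in GV WT oocytes, and lowest for Dnmt3b in ovulated CKO oocytes, at 6.87%, against 27.4% in ovulated WT oocytes. Over the 8 GV libraries, both genotypes together, Trim28 and Dnmt3l ran in opposite directions (Pearson r of log2 CPM -0.96), and Dnmt1 and Uhrf1 ran together (0.89). Over the 6 ovulated libraries Dnmt1 and Zfp57 ran together (0.97), whereas Zfp57 and Kdm1b ran opposite (-0.92). These are the strongest of 45 pairs at each stage, given as descriptions, and the points share their libraries' depth and composition.

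For the 3 genes with the highest mean CPM, the genes with the most similar pattern over the 14 libraries were named by their Pearson r of log2 CPM among 6604 genes. For Tet3 these were Ctcf (0.993), Ibtk (0.989) and Virma (0.987), and within the 8 GV libraries alone the values were 0.979, 0.943 and 0.958, and within the 6 ovulated libraries 0.912, 0.883 and 0.83. For Zfp57 they were Nono (0.992), Fdft1 (0.986) and Lhx8 (0.986), with 0.948, 0.981 and 0.891 within the GV libraries and 0.991, 0.977 and 0.957 within the ovulated libraries. For Dppa3, which did not pass between stages, they were Naa50 (0.847), Rdx (0.823) and Npm1 (0.809), with 0.967, 0.924 and 0.931 within the GV libraries and 0.387, 0.673 and 0.374 within the ovulated libraries. The difference between stages is part of each value over the 14 libraries.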

How the data were processed

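RNA of mouse oocytes was amplified with SMART-Seq2, per the labels' protocols. For each stage the authors deposited 1 table of counts and 1 of FPKM, with a column per library. The deposited values were taken to be expected counts, since 14.45% to 16.32% of values were fractional in a library. No scaling of them is stated, and library totals differed. In the deposited FPKM tables counts were divided by gene length and depth; the lengths used are not given in the sources used here. The build is mm10 per the submitters' processing notes; the aligner, counting tool and annotation are not given in the sources used here.

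Expected counts were rounded. Genotypes were compared within a stage on that stage's libraries, and stages and their interaction in 1 fit of all 14 libraries, on genes listed in both tables, with edgeR 4.0.16 in R 4.3.3 (quasi-likelihood F-test with robust dispersion, TMM scaling, filterByExpr at a minimum count of 10). P-values were adjusted by Benjamini-Hochberg over all genes tested, with a threshold of 0.05, and intervals are 95%. Each fold change has CKO on top of WT, or ovulated on top of GV. CPM are counts per 1000000 of the TMM-scaled library size in the 14-library fit. The 18 replicate pairs within groups were checked for copies and all differed (chi-square from 40.5 to 325.0 per degree of freedom). The scripts were tested on simulated data.

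The members and lists were chosen with earlier results of these data known. The text names all 10 members and Clpx; from each list, up to 3 genes per direction with the largest fold change among those that passed and had a mean of at least 5 CPM, or, where none passed, up to 2 with the smallest p-values; other genes named with unadjusted p-values were chosen after their values were seen. Not every gene so named is described. Alternatives were DESeq2 1.42.0, limma-voom (limma 3.58.1), limma on log2(FPKM + 0.1), DESeq2 size factors, total counts, no filter, a replicate block, other sets of libraries in the fit and leaving out each library. Positions are from RefSeq (GRCm38.p6).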

Additional observations from a re-analysis of the deposited data

Results flagged for a closer look

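Among 20 groups of 4 GV libraries (10 genes, 2 genotypes), 2 held a library whose gap to the next, as a share of the group's range, was above Dixon's 95% critical value. Both concern Kdm1b. GV CKO replicate 4 had 158 CPM, with a gap of 0.869 of the range, and GV WT replicate 3 had 150.1 CPM, with a gap of 0.929. Chance flags about 1 in 20 groups.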

How the results depend on the processing

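Stage results held best. Dnmt3l, Zfp57, Tet3, Trim28, Dnmt3b and Dnmt3a kept their direction and call in all 14 alternatives in each genotype. Over the 780 values of single genes under alternatives, 701 kept direction and side of the threshold, 9 became significant, 5 lost significance and 65 changed sign. Of these 65, 64 did not pass and 1 did, Dppa3 in ovulated against GV oocytes of the CKO with total counts (0.51, edgeR adjusted p = 0.0451). The count of genes called for CKO against WT in ovulated oocytes, 1 with edgeR, was 114 with DESeq2, 64 in a fit of all 14 libraries and 1 to 201 with 1 library left out (0 to 1 members), 201 without ovulated CKO replicate 3 and 3 without ovulated WT replicate 3. DESeq2 called 1 member there. In GV oocytes it was 3 with edgeR, 39 with DESeq2 and 3 to 6 with 1 library left out, 6 without GV CKO replicate 1 or 4. For the difference between stages it was 1 with edgeR, 64 with DESeq2, 0 with limma-voom, 0 with the replicate block and 0 to 498 with 1 library left out (0 to 1 members), 498 without ovulated CKO replicate 3, 2 without ovulated WT replicate 3 and 0 without ovulated CKO replicate 1 or 2, ovulated WT replicate 1, GV CKO replicates 1 to 3 or any GV WT replicate. The causes were not tested.

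Signs that turned for CKO over WT in ovulated oocytes were Tet3, -0.02 with DESeq2 size factors and -0.02 with DESeq2; Dnmt3b, 0.10 with total counts, 0.01 with limma-voom, 0.0044 with the replicate block and 0.10 in FPKM; and in FPKM also Dppa3 (0.01) and Kdm1b (0.11). In GV oocytes they were Trim28, 0.01 with DESeq2 size factors, 0.01 with DESeq2 and 0.02 in the fit of 14 libraries; Dnmt3l, -0.17 with total counts, -0.01 with limma-voom, -0.01 with the replicate block and -0.18 in FPKM; Zfp57, -0.06 with total counts and -0.06 in FPKM; and Kdm1b, -0.13 with total counts and -0.0028 in FPKM. For ovulated over GV, total counts gave 0.06 for Dnmt1 in WT oocytes, and 0.11 for Dnmt1 and 0.51 for Dppa3 in CKO oocytes, and the CKO libraries alone gave 0.0046 for Dppa3. For the difference between stages, total counts gave 0.05 for Dnmt1, 0.25 for Dnmt3a, 0.05 for Uhrf1 and 0.12 for Kdm1b, and Dnmt3a was 0.02 with limma-voom and 0.03 with the replicate block.

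Signs also turned with 1 library left out. In ovulated CKO over WT oocytes the ranges were -0.04 to 0.27 for Dnmt1, -0.17 to 0.18 for Dnmt3b, -0.12 to 0.25 for Uhrf1, -0.21 to 0.15 for Tet3, -0.26 to 0.05 for Dppa3, -0.01 to 0.52 for Trim28 and -0.32 to 0.04 for Kdm1b. In GV oocytes they were -0.25 to 0.17 for Dnmt3l, -0.09 to 0.54 for Tet3, -0.01 to 0.30 for Zfp57, -0.35 to 0.30 for Trim28 and -0.09 to 0.34 for Kdm1b. For ovulated over GV in CKO oocytes it was -0.18 to 0.07 for Dppa3. For the difference between stages they were -0.19 to 0.26 for Dnmt3a, -0.40 to 0.04 for Uhrf1, -0.54 to 0.14 for Tet3 and -0.42 to 0.07 for Kdm1b.

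The deviations of same-numbered CKO and WT libraries had correlations of -0.185, 0.197 and -0.039 in ovulated and -0.217, 0.155, 0.287 and 0.282 in GV oocytes. Differently numbered libraries ran from -0.274 to 0.337 in ovulated and from -0.315 to 0.326 in GV oocytes. All same-numbered values lay within these ranges, so the replicate numbers were not taken as pairs, though most in GV oocytes were above 0. Limits are the 3 or 4 libraries per group, unknown numbers of oocytes and mice, stages deposited in separate tables, and counts per gene that cannot separate isoforms, pseudogenes or tail length.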
